A study of Homo sapiens with 21 samples.

Results

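SKMEL-147, a human melanoma cell line, had 58855 regions in its K27ac list, and 19823 of them (33.7%) overlapped no region, by even 1 bp, of the 7 other K27ac lists of the series. These 19823 regions were chosen by that absence and are called SKMEL-147-only regions here, while the remaining 39032 SKMEL-147 regions are called shared. The 21 samples of the series came from A375, SKMEL-147, SKMEL-5 and 501mel, all 4 of them melanoma lines, of which 15 had a list of enriched regions. The other 7 K27ac lists came from 501mel, from SKMEL-5, from A375 labelled GFP, from A375 labelled shNTC (2 replicates) and from A375 labelled shH2 and shH3. Each of the 4 lines had 1 ATAC list, 501mel and SKMEL-5 each had a CTCF list, and A375 had 1 list for HA-tagged HOXD13. The sample labels do not explain the siNTC that stands in the region names of the 501mel ATAC list, which is called 501mel here. The series sets out to silence or overexpress HOXD13, but the labels name no target for the shH2 and shH3 hairpins and no agent for the SKMEL-147 cells. Some cultures received doxycycline at 1 µg/ml over 72 h, but which samples these were is not given in the labels. The labels do not divide the samples between ChIP-seq and CUT&Tag, and the 6 remaining libraries (the IgG controls and, from A375-GFP, an HA library) were not used here.

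K27ac is acetylation of lysine 27 of histone H3, a mark of active enhancers and promoters. Enhancers are stretches of DNA, often far from genes, that bind transcription factors and raise the transcription of genes on the same chromosome, and they are the part of the acetylated genome that differs most between cell states. Melanoma lines are known to lie between a pigmented, MITF-driven melanocytic state and an undifferentiated, invasive state with AP-1 and TEAD activity. ATAC marks DNA that a transposase can reach, here called open. HOXD13 is a homeodomain transcription factor of limb and genital development.

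SKMEL-147 had a single K27ac library, so no value below has a replicate error and none was tested. Intervals are 95% Wilson intervals over regions, cover counting error alone, and treat neighbouring regions as separate although they share a library. Read depth was unknown, since the lists hold regions and not reads. The A375-shNTC replicates gave the size of list-to-list disagreement within 1 group: 19.6% of the regions of replicate 1 were absent from replicate 2, and 13.2% the other way round. That disagreement lay in weak regions, because among regions with a deposited −log10 q of at least 10 the absent share was 0.204% and 0.0280%. Among the regions counted as weak it was 49.8% and 36.9%. SKMEL-147-only regions were mostly weak, with a median −log10 q of 3.36. The SKMEL-147 K27ac list stood apart from most other K27ac lists at gene starts. Only 5.39% of 15812 windows from 250 bp before to 50 bp after a protein-coding gene's start held one of its regions, as did 5.72% in 501mel, against 25.9% to 48.3% in the other 6 lists. The SKMEL-147 ATAC list covered 66.7% of the same windows. The results on starts below therefore rest on few regions.

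At 5 gene starts an SKMEL-147-only region with an authors' fold enrichment of at least 5 reached into a start window counted as open in SKMEL-147. These are the 5 strongest such starts, and the 250 bases before each are shown to let the covered part be seen beside the values given further on. The bases are from RefSeq (GRCh38.p14), 5′ to 3′ on the gene's strand, with the bases inside the SKMEL-147-only region in capitals.
P4HTM (chr3:48989658-48989907, + strand): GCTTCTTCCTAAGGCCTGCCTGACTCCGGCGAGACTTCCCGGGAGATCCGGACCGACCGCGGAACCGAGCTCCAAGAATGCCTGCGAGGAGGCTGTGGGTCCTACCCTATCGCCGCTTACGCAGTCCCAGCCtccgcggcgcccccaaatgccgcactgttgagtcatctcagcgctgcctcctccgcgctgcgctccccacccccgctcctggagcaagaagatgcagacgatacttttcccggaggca
SH3RF2 (chr5:145936328-145936577, + strand): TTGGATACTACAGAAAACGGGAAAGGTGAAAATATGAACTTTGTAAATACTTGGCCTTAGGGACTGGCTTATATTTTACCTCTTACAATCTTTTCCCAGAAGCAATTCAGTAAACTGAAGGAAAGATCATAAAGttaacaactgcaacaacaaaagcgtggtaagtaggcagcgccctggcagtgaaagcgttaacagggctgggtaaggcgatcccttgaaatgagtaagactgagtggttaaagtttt
JPH2 (chr20:44187189-44187438, − strand): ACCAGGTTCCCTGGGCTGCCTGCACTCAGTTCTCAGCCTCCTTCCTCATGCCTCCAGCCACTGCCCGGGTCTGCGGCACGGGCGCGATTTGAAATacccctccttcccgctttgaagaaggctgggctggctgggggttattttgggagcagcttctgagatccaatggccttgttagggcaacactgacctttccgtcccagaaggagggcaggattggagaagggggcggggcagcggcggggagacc
LRRC15 (chr3:194369744-194369993, − strand): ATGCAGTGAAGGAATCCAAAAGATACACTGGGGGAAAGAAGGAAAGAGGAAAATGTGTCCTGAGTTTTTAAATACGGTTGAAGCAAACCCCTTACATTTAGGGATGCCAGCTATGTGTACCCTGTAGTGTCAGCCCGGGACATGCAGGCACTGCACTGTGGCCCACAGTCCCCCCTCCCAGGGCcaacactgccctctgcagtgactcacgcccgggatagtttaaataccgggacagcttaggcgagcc
FPR1 (chr19:51751879-51752128, − strand): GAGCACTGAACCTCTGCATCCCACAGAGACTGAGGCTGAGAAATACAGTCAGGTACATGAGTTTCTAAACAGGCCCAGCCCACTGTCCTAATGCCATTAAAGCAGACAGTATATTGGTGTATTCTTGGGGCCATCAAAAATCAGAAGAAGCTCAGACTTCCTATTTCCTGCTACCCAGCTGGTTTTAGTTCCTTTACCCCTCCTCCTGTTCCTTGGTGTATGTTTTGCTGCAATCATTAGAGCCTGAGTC

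The region covered 132 of the 250 bases before the P4HTM start, 134 at SH3RF2, 95 at JPH2, 184 at LRRC15 and all 250 at FPR1. Each window was searched on both strands for an AP-1 word (TGACTCA or TGAGTCA), a TEAD word (GGAATG or CATTCC), an M-box of the kind MITF binds (TCATGTG or CACATGA) and a HOX13-type word (CCAATAAA or TTTATTGG). The AP-1 word was found 90 bases before the P4HTM start and 48 bases before the LRRC15 start, in both cases outside the acetylated bases. No other of these words was found in the 5 windows. Over all windows of this length the AP-1 word occurred in 3.17%, the TEAD word in 10.1%, the M-box in 1.94% and the HOX13-type word in 0.765%. In the 30 windows with an SKMEL-147-only region the AP-1 word occurred in 3 and the TEAD word in 2. Such matches describe letters and not binding.

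The members were chosen from the K27ac lists, so their K27ac values are given as a description. The A375 lists removed most SKMEL-147 regions from the set: 62.8% of all SKMEL-147 regions overlapped at least 1 A375 list, 23.7% overlapped SKMEL-5 and 18.7% overlapped 501mel. The longest list, A375-GFP with 139985 regions, alone accounted for 3056 regions that would otherwise have been members, 501mel for 962 and SKMEL-5 for 599. At the edge of the rule, 402 members lay within 50 bp of a region of another list and had a median fold enrichment of 3.70, and 481 shared regions overlapped by 50 bp or less and had a median of 3.80. The median gap from a member to the nearest region of another list was 2513 bp. Within 1 kb of one lay 6275 members (31.7%), 5319 (26.8%) were over 10 kb away, and 801 (4.04%) were over 100 kb away. Many members also stood beside other acetylation of SKMEL-147 itself, with 21.8% within 1 kb and 56.1% within 10 kb of a shared region.

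SKMEL-147-only regions were weaker and narrower than shared ones. Their median fold enrichment was 3.89 against 4.66, their median −log10 q was 3.36 against 4.90, and their median width was 376 bp against 616 bp. A −log10 q of at least 10 was reached by 969 members (4.89%) and by 8958 shared regions (23%). Together the members covered 10.4 Mb and the shared regions 41.9 Mb. When all SKMEL-147 regions were ordered by −log10 q and cut into 10 classes, members made up 54.1% of the weakest class, 33.4% of class 6 and 6.46% of the strongest.

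Of the 19823 members, 5903 (29.8%, interval 29.1 to 30.4%) overlapped an ATAC region of SKMEL-147, against 60.3% of shared regions and 50.1% of all SKMEL-147 K27ac regions. In the other lines the members were seldom open. The share was 8.65% (8.26 to 9.05%) in A375-GFP against 55.0% of shared regions and 39.4% of all, 3.62% (3.37 to 3.89%) in 501mel against 30.9% and 21.7%, and 1.61% (1.44 to 1.79%) in SKMEL-5 against 21.1% and 14.5%. Among members the open share in SKMEL-147 was 3.44 times that in A375-GFP, and among shared regions 1.10 times. The rule itself bears on these contrasts, since members lack K27ac in the other lines and most shared regions have it in A375. Its part in them was not tested. The ATAC lists differ in length, with 163102 regions in SKMEL-147, 118398 in A375-GFP, 104442 in 501mel and 56333 in SKMEL-5, and their part in the order of the lines was not tested except by holding all to the shortest length, which gave 18.9% in SKMEL-147, 3.28% in A375-GFP, 1.56% in 501mel and 1.61% in SKMEL-5. At that length 501mel no longer stood above SKMEL-5.

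**Figure D1:**
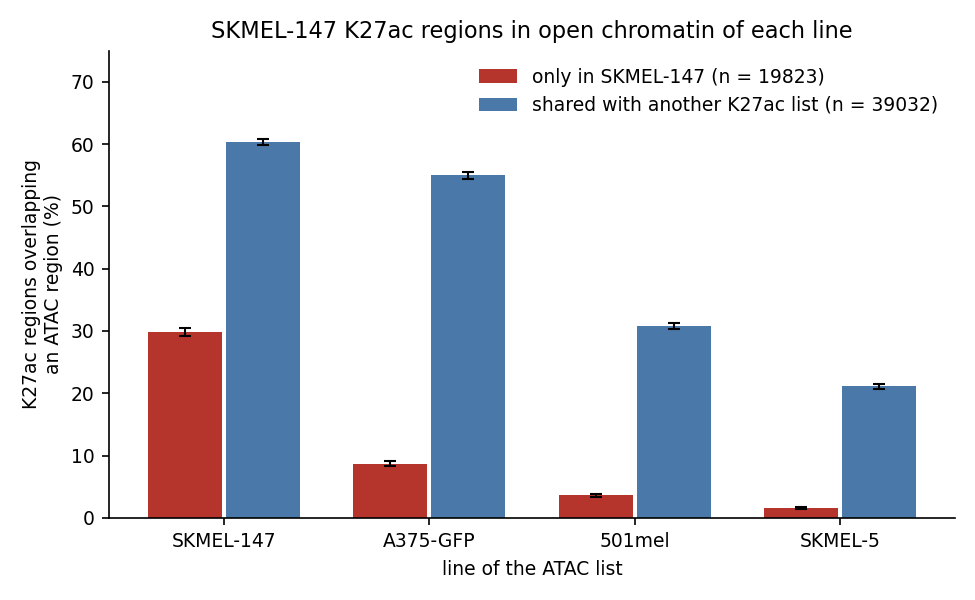
Bars give the share of SKMEL-147 K27ac regions (%, vertical axis) that overlapped an ATAC region of each line (horizontal axis), for the 19823 SKMEL-147-only and the 39032 shared regions, with 95% Wilson intervals. Among SKMEL-147-only regions the bar falls from 29.8% in SKMEL-147 to 8.65% in A375-GFP, 3.62% in 501mel and 1.61% in SKMEL-5, while shared regions stand at 60.3%, 55.0%, 30.9% and 21.1%. SKMEL-147-only regions were chosen for lacking K27ac in the other lines.

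Taking the lines jointly, 13625 members (68.7%) were open in none of the 4 lines, compared with 33.7% of shared regions. Another 4050 (20.4%) were open in SKMEL-147 and in no other line, compared with 7.93% of shared regions. Openness in SKMEL-147 and A375-GFP but not in 501mel or SKMEL-5 was found for 1151 members (5.81%, shared 20.9%). All 4 lines were open at 123 members (0.620%, shared 16.9%), and 295 members (1.49%) were open in another line but not in SKMEL-147. Where a member was open in SKMEL-147, its ATAC region was as strong as that of a shared region: the median ATAC fold enrichment was 17.2 in both sets, against 9.42 over the whole SKMEL-147 ATAC list. In the other lines the members that were open had weaker ATAC regions than shared ones, with medians of 6.84 against 9.29 in A375-GFP, 7.01 against 10.8 in 501mel and 5.31 against 7.46 in SKMEL-5.

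The open share of members rose with the strength of the acetylation. It was 15.2% (14.0 to 16.5%) in the weakest class, 34.7% (32.6 to 36.8%) in class 6 and 91.1% (87.8 to 93.5%) in the strongest, where 380 members fell. Shared regions went from 32.3% to 96.8% over the same classes and lay above members in every class. In A375-GFP chromatin the members rose from 4.71% to 29.2% and the shared regions from 31.5% to 90.6%. The rule itself bears on this contrast, since members lack A375 K27ac and 36942 of the 39032 shared regions overlapped an A375 list. Width gave the same order: in the narrowest of 5 width classes 15.7% of members and 32.6% of shared regions were open in SKMEL-147, and in the widest class 87.3% and 93.1%.

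**Figure D2:**
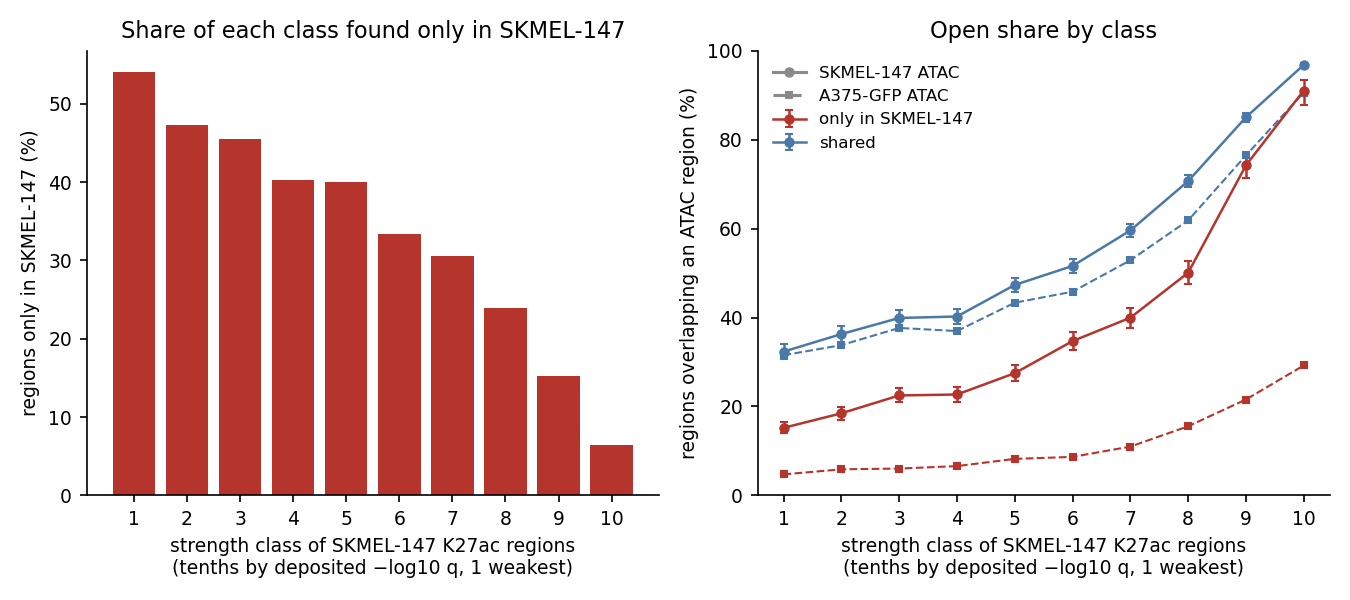
Left, the share (%) of each strength class made up of SKMEL-147-only regions. Right, the share (%) overlapping ATAC regions of SKMEL-147 (circles, solid, with 95% Wilson intervals) and A375-GFP (squares, dashed) for SKMEL-147-only and shared regions; classes run from 1 (weakest by −log10 q) to 10. Members fall from 54.1% of the weakest to 6.46% of the strongest class, and their SKMEL-147 open share climbs from 15.2% to 91.1%.

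Members far from every other K27ac list were open more often. Those within 1 kb of another list's region were open in SKMEL-147 in 15.9% of cases (15.0 to 16.8%), those 1 to 10 kb away in 25.2%, those 10 to 100 kb away in 51.2% (49.7 to 52.6%) and those over 100 kb away in 64.5% (61.2 to 67.8%). Their median fold enrichments were 3.92, 3.80, 3.94 and 3.99. The A375-GFP open share over the same classes was 6.63%, 5.88%, 15.2% and 16.0%.

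The 10 members with the highest fold enrichment were all open in SKMEL-147. The strongest, with a fold of 26.3 over 8.56 kb at chr17:40951154-40959717, lay 2.98 kb from KRT39, a hair keratin gene, in the keratin cluster. Its ATAC fold was 17.1 in SKMEL-147, 21.4 in 501mel and 8.60 in A375-GFP, and it carried a HOXD13-HA region of fold 3.30, so it was open in 3 lines and acetylated in the SKMEL-147 list alone. The next, with a fold of 22.2, lay inside DCDC2, which encodes a microtubule-binding doublecortin-domain protein, at chr6:24321644-24325646, and was open in SKMEL-147 alone with an ATAC fold of 29.9. The next, with a fold of 21.9 at chr9:22101691-22105935, lay 94.5 kb from CDKN2B, an inhibitor of the cyclin D kinases, and was also open in SKMEL-147 alone. Within 200 kb on each side of it SKMEL-147 lists had 63 regions, those of 501mel 46 and those of A375 162, while SKMEL-5 lists of any kind had 0, so absence from SKMEL-5 there cannot be told apart from loss of the DNA. Over all members, 244 (1.23%) had no SKMEL-5 region of any kind within 200 kb, 146 (0.737%) no 501mel region and 54 (0.272%) no A375 region.

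The other 7 of the strongest 10 lay near CHRD, a secreted antagonist of BMP ligands (fold 17.9, 74.9 kb from the gene), near SGIP1, an endocytic adaptor (17.6, 67.9 kb), inside EYA2, a transcriptional coactivator with phosphatase activity (17.3), near DUSP10, a phosphatase of stress kinases (17.3, 68.4 kb), near C13orf46 (16.6, 29.6 kb), near IER3, an immediate early gene (15.9, 15.1 kb), and inside ZNF19, a zinc finger gene (15.8). The regions at CHRD, SGIP1 and IER3 were open in SKMEL-147 alone. Those in EYA2 and ZNF19 were also open in A375-GFP, with ATAC folds of 9.29 and 6.71. The region near DUSP10 was also open in 501mel (5.92) and that near C13orf46 in SKMEL-5 (6.03). These second-line ATAC folds were below the SKMEL-147 value at the same place, which was 15.4, 21.9, 14.7 and 22.9 in that order.

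Below those, strong members open in SKMEL-147 alone lay inside LPP, a LIM-domain protein of focal adhesions (K27ac fold 15.2, ATAC fold 10.6), 122.2 kb from DNAH5, an axonemal dynein gene (14.3 and 20.8, with a HOXD13-HA region of fold 4.58), inside TNIK, a kinase of the WNT pathway (14.2 and 27.6), and 54.7 kb from P2RY1, an ADP receptor gene (14.1 and 17.3). The strongest members open in all 4 lines lay 33.8 kb from COPB1, a coatomer subunit gene (fold 15.5), inside RARB, a retinoic acid receptor (15.1), inside CDK15 (15.1), near H3Y1 (13.1) and near MAP2 (12.6), then inside KRT23 (11.7), BMPER (9.39), TENM4 (9.20) and ERBB4 (9.01) and far from ACO1 (8.29). At the RARB region the ATAC fold was 21.7 in SKMEL-147, 12.3 in 501mel, 5.62 in SKMEL-5 and 9.89 in A375-GFP. SKMEL-147 had the highest ATAC fold of the 4 lines at each of these 10 places. ATAC folds come from separate lists whose depth was unknown, so their order between lines is a description.

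A HOXD13-HA region of A375 overlapped 546 members (2.75%, interval 2.54 to 2.99%), compared with 9.91% of shared regions and 7.50% of all SKMEL-147 K27ac regions. HOXD13-HA was profiled in A375 and not in SKMEL-147, so the overlap says where A375 placed the protein. The rule itself bears on each contrast with shared regions here, since members lack A375 K27ac and 36942 shared regions overlapped an A375 list. Its part in them was not tested. The A375 ATAC list came from cells labelled GFP, and the cells with HOXD13-HA had no ATAC list. Of the 546, 364 (66.7%) were open in SKMEL-147 and 159 (29.1%) in A375-GFP, whereas HOXD13-HA-marked shared regions were open in 88.2% and 83.3%. None of the 4 lines was open at 168 of the 546 (30.8%). Members that were open in A375-GFP carried HOXD13-HA in 9.28% (7.99 to 10.7%), and members that were not in 2.14% (1.94 to 2.36%). The matching shares of shared regions were 15.0% and 3.68%. Within the strongest class the share with HOXD13-HA was 6.84% of members and 22.0% of shared regions. The HOXD13-HA regions at members were somewhat stronger than at shared regions, with a median fold of 4.15 against 3.69 and 3.93 over the whole list.

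**Figure D3:**
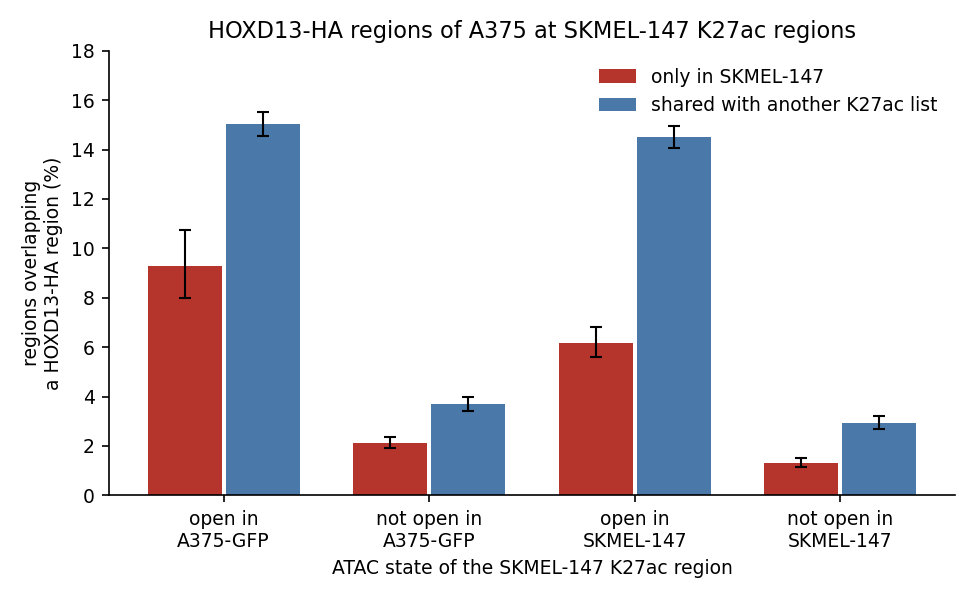
Bars give the share (%, vertical axis) of SKMEL-147-only and shared K27ac regions that overlapped a HOXD13-HA region of A375, split by whether the region was open in A375-GFP or in SKMEL-147, with 95% Wilson intervals. In A375-GFP open chromatin the shares are 9.28% and 15.0%, and outside it 2.14% and 3.68%.

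The 10 members under the strongest HOXD13-HA regions had modest acetylation, with K27ac folds from 3.56 to 7.57. The HOXD13-HA fold was 18.4 next to QSER1, 15.8 at 104.7 kb from FAR1, a fatty acyl-CoA reductase gene, and 15.1 at 29.5 kb from SERPINB7, a serpin gene. It was 13.7 inside SCHIP1, 11.1 at 183.1 kb from DCBLD2, 11.0 inside TPMT, which encodes thiopurine methyltransferase, 11.0 inside SLC4A4, a bicarbonate cotransporter gene, 10.9 near LOC128966717, 10.6 inside FOXN3, a forkhead repressor gene, and 9.98 next to HMGA2, which encodes an architectural chromatin protein. Of these 10 places 7 were open in SKMEL-147, and 3 of those 7 (near FAR1, in SCHIP1 and near DCBLD2) were also open in A375-GFP. The places at QSER1, FOXN3 and HMGA2 were open in no line. At HMGA2 the member ran from 65966223 to 65966767 on chromosome 12, 0.204 kb from the gene, and its HOXD13-HA region from 65965334 to 65966380.

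CTCF regions of 501mel and SKMEL-5 were rare at members. CTCF, the insulator protein, was not profiled in SKMEL-147. A 501mel CTCF region overlapped 0.969% of them (shared 11.3%, all 7.81%) and a SKMEL-5 CTCF region 1.43% (shared 12.8%, all 8.96%). Members were also far from gene starts: 505 (2.55%, interval 2.34 to 2.78%) lay within 2 kb of a start, compared with 12.3% of shared regions and 9.01% of all. For 4162 genes without a known strand both gene ends were counted as starts, so some of these starts are gene ends. The median distance to the nearest start was 63.4 kb for members and 34.7 kb for shared regions. Inside a gene but away from its start lay 56.9% of members and 54.1% of shared regions, and between genes 40.6% and 33.6%. In the strongest class, where openness was highest, 0.789% of members and 6.27% of shared regions were within 2 kb of a start. The rule itself bears on the CTCF and start contrasts. Members lack K27ac of the lines with CTCF lists, and other K27ac lists held regions in up to 48.3% of start windows. Its part in these contrasts was not tested.

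An SKMEL-147-only region reached into the start window of 30 of 15812 protein-coding genes (0.190%). Of these windows 13 were open in SKMEL-147, 9 in A375-GFP, 4 in 501mel and 3 in SKMEL-5, and 15 in no line. The strongest lay over the start of OR2M5, an olfactory receptor gene (fold 10.98), and was open in no line. P4HTM, a membrane-bound prolyl hydroxylase, followed with a fold of 7.93 and was open in SKMEL-147 alone, then RTP3 (7.17, open in no line), SH3RF2, an SH3 and RING domain gene (6.13, open in SKMEL-147 and A375-GFP), and JPH2, a junctophilin of muscle membranes (5.93, open in those and SKMEL-5). KRTAP4-8, a keratin-associated protein gene (5.84), TMPRSS11D, an airway serine protease gene (5.41), and OR14A2 (5.32) were open in no line. LRRC15, a leucine-rich-repeat surface protein, had a fold of 5.41 with all 4 lines open. FPR1, the formyl peptide receptor of phagocytes, had a fold of 5.27, was open in SKMEL-147 and A375-GFP, and its window also held a HOXD13-HA region. Lower came TNIP1, an inhibitor of NF-kB signalling (5.02), TSBP1 (4.98), TTC39C (4.72), the importin gene IPO5 (4.69) and LOC124905948 (4.69).

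The 30 start windows were poor in CpG. Of the 250 bases before the start the median GC content was 46.6%, against 56.8% for windows with any SKMEL-147 K27ac region and 62.4% for all, and the median number of CpG pairs was 2 against 15 and 17. More than 15 CpG pairs were found in 1 of the 30 windows, against 46.8% and 54.9%; the exception was P4HTM with 23. The 853 windows with any SKMEL-147 region were few, and 8218 windows had K27ac in another list but not in SKMEL-147. The rule itself bears on the CpG contrast, since a region that overlaps K27ac of another list cannot be a member. Its part in the contrast was not tested.

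Long genes gathered the most members. When each member was assigned to the protein-coding gene that contains it or lies nearest, 5373 genes received at least 1, 445 received 10 or more, and the median length of those 445 was 211.3 kb against 24.2 kb for all genes. LPP received the most, 100 members, 93 of them inside its 737.7 kb and 7 outside, of which 20 were open in SKMEL-147, 7 in A375-GFP and 1 carried HOXD13-HA. KCNMA1, the large-conductance potassium channel, had 83 (11 open in SKMEL-147), and PBX3, a homeodomain partner of HOX proteins, had 56 (6 open). NRG1, a ligand of ERBB receptors, had 51, of which 19 were open in SKMEL-147, 5 in A375-GFP and 1 each in 501mel and SKMEL-5. Inside NRG1, 46 of the 54 SKMEL-147 K27ac regions were members, whereas in FNDC3B, a fibronectin-domain membrane protein, 41 of 111 were. Per 100 kb of gene PBX3 had 25 members inside, NRP1, the neuropilin receptor of VEGF and semaphorins, had 21.6, and NRG1 had 4.05. DST, a cytoskeletal linker, and NRP1 had 48 each, FNDC3B and PALM2AKAP2 had 47 each, IQCJ-SCHIP1 and TENM4 had 45 each, MECOM, a zinc finger transcription factor, had 44, FRMD5 had 43, and PAPPA, a protease of IGF-binding proteins, and PDE1C had 40 each. Of the MECOM members 12 were open in SKMEL-147 and 0 in A375-GFP, and of the FRMD5 members 2 and 0.

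Members were chained into clusters where neighbours lay within 12.5 kb. Of all members 7505 (37.9%) stood alone, and 500 clusters of 5 or more held 3611 (18.2%). The largest had 28, the median span was 22.6 kb and the longest 116.4 kb. A protein-coding gene overlapped 381 of the 500, an open member was found in 371, and a member with HOXD13-HA in 81. Clustered members were less open in SKMEL-147 than lone ones: 20.4% (19.1 to 21.7%) in clusters of 5 or more and 15.8% (13.6 to 18.2%) in clusters of 10 or more, against 32.9% (31.8 to 33.9%) of lone members. The median fold was 3.97 in clusters of 5 or more and 3.60 for lone members.

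The 2 clusters of 28 were at chr9:115600665-115695100, 458.7 kb from PAPPA and in no protein-coding gene, and at chr9:125743392-125821388 over the start and first part of PBX3. In the first, 28 of 35 SKMEL-147 K27ac regions were members, 3 of them open in SKMEL-147 and 0 in any other line, and the A375 lists had 5 to 8 regions in the span, while 501mel and SKMEL-5 had 0. The members there were the weaker regions, with a highest fold of 7.53, while the 7 shared regions had folds from 7.68 to 35.0. In the second 1 member was open in SKMEL-147 and 2 carried HOXD13-HA. COL13A1, a transmembrane collagen, held 25, FNDC3B and PALM2AKAP2 23 each, LPP and MECOM 21 each, and KCNMA1 and PLCXD2 20 each. In the MECOM cluster (chr3:169088961-169146138) members made up 21 of the 22 SKMEL-147 regions, the other lists had at most 1 K27ac region each, and ATAC regions numbered 7 in SKMEL-147, 2 in 501mel, 1 in SKMEL-5 and 0 in A375-GFP. The FNDC3B cluster was the opposite case, since its span also held 18 shared regions, 20 of A375-GFP and 13 of 501mel.

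**Figure D4:**
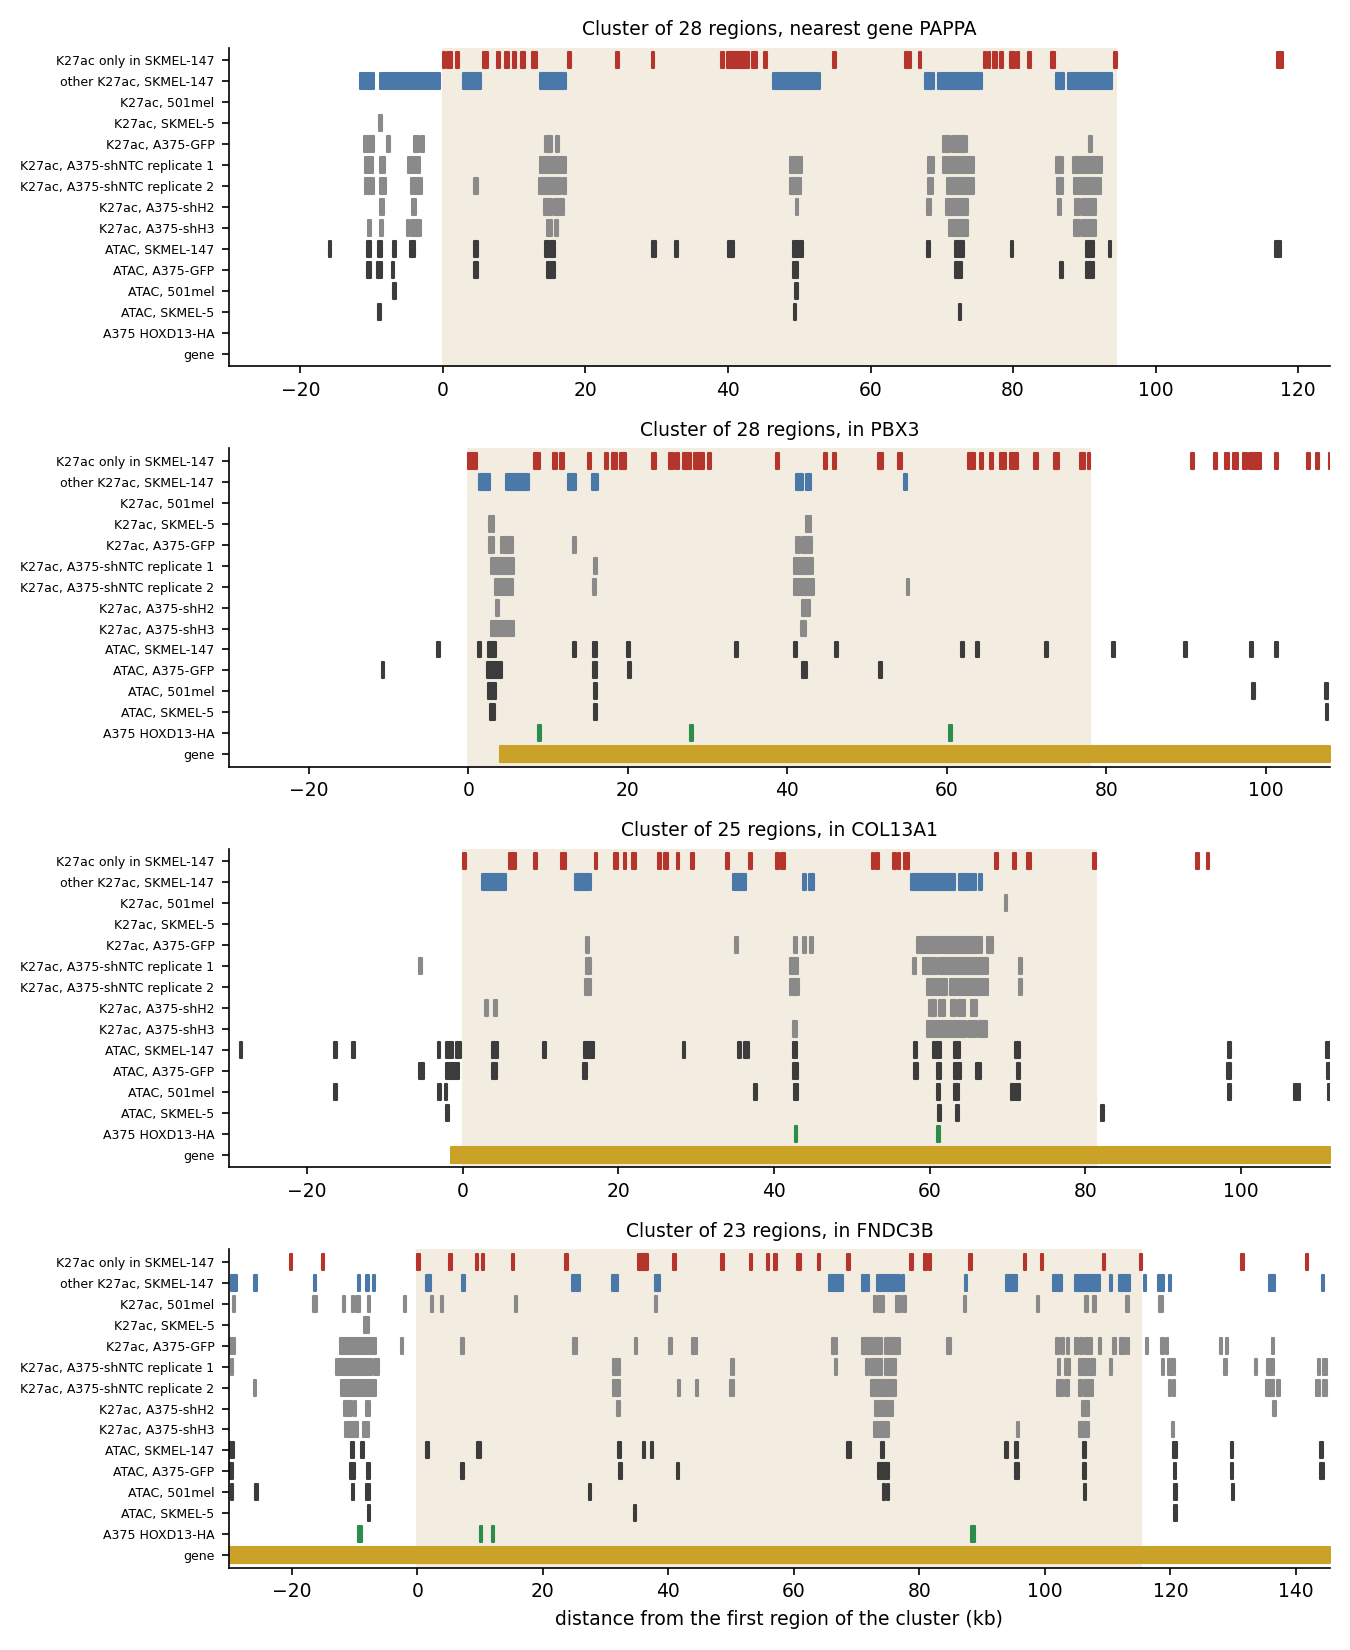
Maps of the 4 clusters with the most members, with distance from the first member on the horizontal axis (kb) and the cluster shaded. Rows show SKMEL-147-only regions, other SKMEL-147 K27ac regions, the K27ac and ATAC lists of each line, HOXD13-HA regions and the gene body; in the PAPPA panel 28 members lie between 7 shared regions, and in the COL13A1 panel 25 members share the span with 8 A375-GFP regions.

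In 100 of the 500 clusters (20%) no other K27ac list had any region between the first and last member. The fullest of these lay in BASP1, a growth cone protein gene (chr5:17218400-17269598), with 16 members, of which 5 were open in SKMEL-147, 1 in SKMEL-5 and 0 in 501mel and A375-GFP, and a top K27ac fold of 11.5. A second stretch of PBX3 (chr9:125834013-125867040) had 13, with 2 open in SKMEL-147. RARB had 11 (chr3:25475908-25515111), 3 of them open in SKMEL-147 and the strongest, with a fold of 15.1, open in all 4 lines as given above. NRG1, DAB1, an adaptor of reelin signalling, and GPR39, a zinc-sensing receptor, had 9 each, of which 2, 5 and 0 were open in SKMEL-147. CTNND2, a neuronal catenin, and SMYD3, a methyltransferase, had 8 each, CCR1, a chemokine receptor, had 7 with 4 open and 1 under HOXD13-HA, and a stretch 475.6 kb from PCDH15 had 7.

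One cluster of 17 members without a protein-coding gene, at chr1:198866484-198939745, began 7.33 kb from the miR-181a-1 gene and 7.50 kb from the miR-181b-1 gene, and is named here after its values were seen. The 5p products of both genes share the seed, bases 2 to 8, printed in capitals from RefSeq so that the pair can be compared.
hsa-miR-181a-5p: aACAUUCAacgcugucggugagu
hsa-miR-181b-5p: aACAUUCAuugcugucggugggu
None of the 17 members was open in any of the 4 lines. The span also held 14 shared SKMEL-147 regions and 5 to 10 K27ac regions of each other list, so the cluster lay in a stretch with K27ac in all 4 lines.

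To see which kinds of gene lay near members, 28 lists of genes were used, and a gene was counted where a member fell inside it or within 50 kb. Over all 19974 protein-coding genes 37.9% had such a member and 66.6% had a shared SKMEL-147 region, and gene length moved the first share from 23.7% in the shortest of 4 length classes to 61.3% in the longest. The lists, like the members, were chosen with results of these data known, so their counts are read against that background only as a description. Of 521 different list genes matched to RefSeq, 234 had a member nearby.

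Genes of the undifferentiated, invasive melanoma state stood above the background, with a member near 18 of 23 (78.3%). Their median length was 39.5 kb, against 24.2 kb for all genes. Shared regions lay near 21 of the 23 (91.3%), also above their background of 66.6%. NRG1 had 46 members within 50 kb and a top fold of 10.8, WNT5A, a noncanonical WNT ligand, had 4 with a top fold of 8.45 at chr3:55466397-55468525 inside the gene, and both were open in SKMEL-147 alone. CCN2, a TEAD target (7.21, 44.0 kb away), and ZEB1, a repressor of epithelial genes (6.85, 3.01 kb away), followed. EGFR had 20 members with a top fold of 6.49, open in SKMEL-147 alone. AXL and NGFR had 0 members but 16 and 4 shared regions nearby, so these markers were acetylated in places found in other lists too. Among transcription factors of epithelial-mesenchymal transition 8 of 10 had a member, the strongest 13.5 kb from SNAI2 with a fold of 13.0 and open in SKMEL-147 alone. SNAI1 had 1 member, 25.7 kb away and with a fold of 5.77, that was open in SKMEL-147, 501mel and A375-GFP. TWIST2 had 3. TCF4 had 8, including one over its start (fold 3.60) that was open in no line. AP-1 and TEAD-YAP genes reached 14 of 22 (63.6%), with 12 members near JUN (5.62), 17 near TEAD1 (5.38) and 3 near WWTR1 (5.41), where 64 shared regions also lay.

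Matrix and matrix-crosslinking genes had a member near 20 of 29 (69.0%), led by FBN1, fibrillin (13 members, top fold 11.6, open in SKMEL-147 and A375-GFP), POSTN, periostin (3 members, 9.37, and 0 shared regions), COL8A1 (21 members, 6.12) and COL5A2 (6 members, 5.77). Axon guidance and synaptic genes reached 21 of 28 (75%), but their median length of 383.2 kb was far above that of other lists. NLGN1 had 14 members with a top fold of 11.2, UNC5D 1 (9.52), SEMA5A 4 (8.69) and NRXN3 16 (8.10, with HOXD13-HA). Of TGF-beta and BMP genes 13 of 23 had a member. The strongest, 35.8 kb from TGFB2, had a fold of 7.21, was open in SKMEL-147 and 501mel and carried HOXD13-HA, and BMP5 (6.49), SMAD2 (5.41) and LTBP1 (5.41) followed. Of WNT pathway genes 19 of 35 had one, with WNT5A, SFRP1 (7.53), DKK3 (5.84) and WNT3 (5.79) leading. Integrin genes had 9 of 18, led by ITGA2 (7.21), ITGB8 (6.49), ITGB1 (5.41) and ITGB4 (5.05).

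The series concerns blood vessel growth and immune evasion. Lists for both held members, as did every list except that of HOX genes. Of 28 angiogenesis genes 14 had one (50%, background 37.9%), and 89.3% had a shared region (background 66.6%). FGF1 (9.37), PDGFC (15 members, 8.24), HIF1A (7.89) and NRP1 (47 members, 7.57) led, the first 3 open in SKMEL-147 alone and the NRP1 region open nowhere. Of 24 chemokine and cytokine genes 12 had a member (50%), and 79.2% had a shared region. Among those with a member were IL1A (15 members, 6.85), IL1B (6.49, 0.425 kb away), CCL2 (6.33) and IL6 (5.65). Immune checkpoint genes reached 8 of 18 (44.4%), near the background, with CD274 and PDCD1LG2, the PD-1 ligands, sharing a region of fold 4.69 that was open in SKMEL-147 alone, and PVR at 4.37. Adenosine pathway genes reached 6 of 15 (40%), again near the background, with NT5E, the ectoenzyme CD73, at 5.77, ADORA2A at 5.17, ADK at 4.33 and ENTPD2 at 3.94. Interferon and antigen presentation genes reached 14 of 24, led by IRF1 (6.85), CIITA (5.41), ERAP2 (5.05) and ERAP1 (5.05). Feedback genes of the MAPK pathway reached 12 of 22, led by IER3 (15.9), DUSP10 (6.51), PHLDA1 (5.05) and SPRED2 (4.69). Receptor tyrosine kinase genes reached 12 of 30 (40%), where ERBB4 (9.01), EGFR, NTRK3 (5.09) and ROR1 (4.88) led.

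Melanocytic genes had a member near 10 of 20 (50%) and a shared region near 17 of 20 (85.0%), above the backgrounds of 37.9% and 66.6%. The strongest was 7.73 kb from SLC24A5, an exchanger of pigment cells, with a fold of 7.57, and TRPM1 (5.41), OCA2 (5.11) and PAX3 (4.33) followed. MITF, the master regulator, had 1 member with a fold of 3.94 among 14 shared regions, and PMEL and SOX10 had 0 members and 6 and 18 shared regions. Neural crest genes reached 7 of 22 (31.8%), with SNAI2, SNAI1, TWIST2 and PAX3 leading, all held by another list. Limb development genes reached 10 of 33 (30.3%), led by RUNX2 (14 members, 5.77), GLI3 (5.36), TBX18 (4.07) and GREM1 (3.97). The 39 HOX genes had 0 members within 50 kb, although 37 of them had a shared SKMEL-147 region there. That count of 0 depends on the overlap rule: when 500 bp windows at summits were compared in place of whole regions 13 of the 39 had a member, with equal list lengths as well, a setting chosen after seeing the data, 23 had one, and within 100 kb 2 had one.

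**Figure D5:**
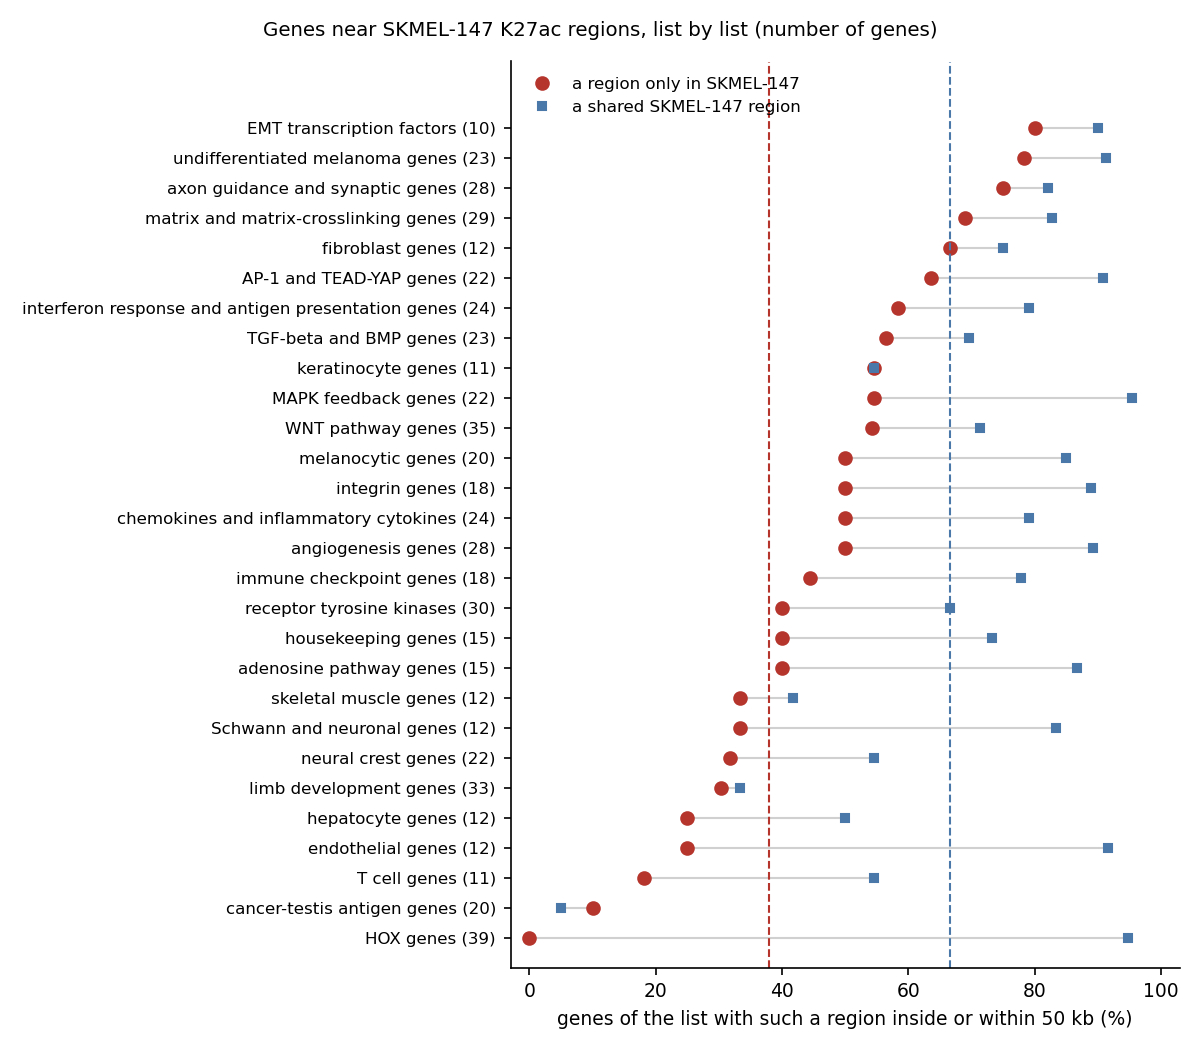
For each of 28 gene lists (number of genes in brackets) the circle gives the share of genes (%, horizontal axis) with an SKMEL-147-only region inside or within 50 kb and the square the share with a shared SKMEL-147 region; dashed lines mark the 37.9% and 66.6% of all protein-coding genes. The list of transcription factors of epithelial-mesenchymal transition stands highest at 80% and the HOX genes lowest at 0% with a square at 94.9%, a place that they lose when windows at summits are compared (13 of 39).

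Markers of other cell types were checked the same way. T cell genes had a member near 2 of 11, endothelial and hepatocyte genes 3 of 12 each, skeletal muscle and Schwann or neuronal genes 4 of 12 each, shares below the background of 37.9% under this rule. With windows at summits endothelial genes (6 of 12) and Schwann or neuronal genes (6 of 12) passed the background of 46.7%, without the shNTC, shH2 and shH3 lists T cell genes (5 of 11) and endothelial genes (6 of 12) passed that of 44.7%, and within 100 kb hepatocyte genes (7 of 12) passed that of 50.6%, so for these lists no direction holds. Skeletal muscle genes lay below it under every setting run. Keratinocyte genes had 6 of 11 (TP63 at 6.45, IVL at 5.28, DSG3 at 4.88, KRT14 at 4.69), and fibroblast genes 8 of 12 (COL1A2 at 5.41, COL1A1 and DCN at 5.05 and 4.72, ACTA2 at 4.33). Housekeeping genes had 6 of 15 (40%), with TUBB counted through the IER3 region, then HPRT1 (6.49), YWHAZ (4.33) and B2M (3.24). Of the remaining named genes CDH5 (5.05), VWF (4.69) and ERG (3.51) were endothelial, SERPINA1 (7.20), APOA1 (5.05) and TF (4.07) hepatocyte, MYOD1 (5.38), TTN (5.16), DES (3.60) and CHRNA1 (3.58) muscle, MBP (5.97), ELAVL4 (5.97), MAP2 (4.33) and GFAP (2.95) glial or neuronal, and CD8A (4.52) and PTPRC (3.77) T cell genes. Of 20 cancer-testis genes 2, MAGEA4 (7.93) and CTAG2 (5.77), had a member and no shared region. The part of other cells in these regions was not tested.

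Members were unevenly spread over the chromosomes. Their share of a chromosome's SKMEL-147 regions ran from 15.8% on chromosome 19 and 18.0% on chromosome 17 to 42.7% on chromosome 14 and 45.2% on chromosome 18. Per Mb, chromosome 3 had the most, 11.9 members among 30.4 regions, and chromosome X and chromosome 19 the fewest, 2.40 and 2.73. The densest 2 Mb stretch, on chromosome 9 from 124 to 126 Mb, held 108 members and includes PBX3. The stretch from 188 to 190 Mb on chromosome 3, which includes LPP, held 104, and 71.2% of the SKMEL-147 regions there were members.

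Regions absent from all K27ac lists of other lines were also counted for the other 3 lines, with A375-GFP set against 501mel, SKMEL-5 and SKMEL-147 and not against the other A375 lists. SKMEL-5 had 7894 such regions (18.7% of its list), 501mel 21190 (37.9%) and A375-GFP 84835 (60.6%). Openness in the own line was 29.8% for SKMEL-147-only regions, 27.8% (26.8 to 28.8%) for SKMEL-5, 21.9% (21.7 to 22.2%) for A375-GFP and 16.4% (15.9 to 16.9%) for 501mel. In each line the shared regions were open more often, with 60.3%, 56.5%, 57.7% and 43.0% in that order. These own-line shares rest on ATAC lists of unlike length, of which that of SKMEL-5 was the shortest. Held to that length, the share of SKMEL-147-only regions was 18.9%, below the 27.8% of SKMEL-5. The order of the lines therefore depends on list length, and the A375-GFP and 501mel shares were not recomputed. HOXD13-HA overlapped 2.75% of SKMEL-147-only regions, 2.84% (2.73 to 2.96%) of those in A375-GFP, the line in which it was profiled, 2.33% (2.02 to 2.69%) in SKMEL-5 and 1.22% (1.08 to 1.37%) in 501mel. The SKMEL-147 and A375-GFP intervals overlap. Over all K27ac regions of each list the shares were unlike, at 7.50% in SKMEL-147, 4.61% in A375-GFP, 6.91% in SKMEL-5 and 3.56% in 501mel. The A375-GFP set also differs in having K27ac in the line where HOXD13-HA was profiled.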

How the data were processed

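The authors deposited lists of enriched regions in narrowPeak form on hg38, 1 per library. The tools named, per the submitters' processing notes, are MACS2, Bowtie2, deepTools, Trim Galore and SAMtools; their versions are not given in the sources used here. From each list the deposited fold enrichment (a ratio per region), the deposited −log10 q and the summit offset were used, all as the authors' own values, and regions on chromosomes 1 to 22 and X were kept. The lists go down to a −log10 q of about 1.3. No counts were used, so depth is unknown.

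Overlap of at least 1 bp was computed in Python 3.11.15 (numpy 2.4.6, pandas 2.3.3), and the code was tested on simulated regions. Genes came from RefSeq (GRCh38.p14), 19974 protein-coding genes, of which 15812 had a start with a known strand; 3 list genes (BAGE, LOR, TRAC) did not match. Near a start means within 2 kb, near a gene within 50 kb, a cluster 5 or more members with gaps of at most 12500 bp. For the 4162 genes without a known strand both gene ends counted as starts in the distances. The 10 strength classes hold equal numbers of regions by −log10 q. The members and gene lists were chosen with earlier results of these data known.

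Named genes follow 1 rule: those nearest to the 10 members of highest fold, at the 10 fullest clusters, the 15 with most members, up to 4 per list by fold of a member within 50 kb plus list genes with a member at the start, the 15 starts under the strongest member, the 10 members with the strongest HOXD13-HA region, and the 10 strongest members open in SKMEL-147 alone and in all 4 lines. Clusters free of other lists, the miR-181 cluster and marker genes without members were added afterwards. Some items that this rule names are not reported here. Nothing states separate cultures for the shNTC replicates, so their disagreement may be technical. Alternatives varied list strength, list length, overlap, distance and the lists used.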

Additional observations from a re-analysis of the deposited data

How the results depend on the processing

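Every share below rises or falls with how strong a region must be. Requiring a −log10 q of at least 10 of the SKMEL-147 regions alone left 969 members, of which 82.4% were open in SKMEL-147, 29.0% in another line, 5.68% under HOXD13-HA, 3.20% under CTCF and 1.75% near a start, with 0 clusters of 5, and 6.91% of list genes had a member within 50 kb. Requiring it in all K27ac lists gave 2507 members, with 86.9%, 54.0%, 11.1% and 5.42% for the first 4 shares, 0 clusters and 16.3% of list genes. With all K27ac lists held to the length of the shortest the shares were 40.2%, 17.9%, 4.09% and 2.38% with 313 clusters and 39.5% of list genes. With no region of another list allowed within 1 kb, 36.2% were open in SKMEL-147, 11.8% in another line and 1.45% near a start, with 275 clusters and 33.2% of list genes. With 500 bp windows at summits 27.9% were open in SKMEL-147, 12.1% in another line, 2.41% under CTCF and 4.42% near a start, with 57.2% of list genes. Without the shNTC, shH2 and shH3 lists the shares were 38.0%, 20.7%, 4.64%, 2.47% and 2.80%, with 762 clusters and 50.3% of list genes. Equal length and summit windows together, chosen after seeing the data, gave 34.4%, 17.5%, 3.61%, 2.78% and 4.87%, with 55.3% of list genes.

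Leaving out an A375-shNTC replicate gave 20371 to 20589 members, 30.1% to 30.4% open in SKMEL-147, 11.3% to 11.5% open in another line, 2.81% to 2.87% under HOXD13-HA, 1.83% to 1.85% under CTCF, 2.56% to 2.63% near a start, 521 to 523 clusters and 45.5% to 45.9% of list genes with a member.

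With ATAC lists held to the shortest length 18.9% of members were open in SKMEL-147 and 5.02% in another line. With the member's summit required inside the other region these were 16.6% and 5.23%, and 1.45% were under HOXD13-HA, while HOXD13-HA regions with a −log10 q of at least 10 covered 0.782% and such CTCF regions 1.17%. Near a start were 0.853% of members at 1 kb and 7.48% at 5 kb. Chaining within 5000 bp gave 221 clusters, clusters of at least 3 members numbered 1742 and of at least 10 numbered 70. A member lay within 10 kb of 28.2% of list genes and within 100 kb of 55.3%. Under every membership rule and overlap setting run, the open share was higher in SKMEL-147 than in the other lines jointly. Every setting kept regions with K27ac in SKMEL-147 and without it in the other lists used, so the selection itself bears on that order. The cause of these moves was not tested beyond the construction of each setting. No paired analysis was possible because the result comes from no test and 1 group alone has numbered replicates. Single libraries and unknown depth limit all values.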
